A study of Mus musculus with 29 samples.

Results

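The genes described here are 33 genes of fatty acid beta-oxidation, chosen by their symbols among the 35199 genes of each table of mouse bladder RNA-seq values. They were sorted into 6 roles, namely the carnitine shuttle (7 genes), the acyl-CoA dehydrogenases and their electron carriers (7), the later steps of the mitochondrial cycle (5), auxiliary enzymes for unsaturated chains (5), peroxisomal oxidation (6), and fuel choice and uncoupling (3). The list was named for beta-oxidation and ketogenesis, but none of the 33 encodes an enzyme of ketone body synthesis, so 8 ketone body genes were followed apart from it, together with 39 further genes of oxidation, carnitine supply and their regulators. The study asked what an active form of the nuclear receptor Pparg does in basal cells of the urothelium and in carcinogen-induced bladder tumors. Mutant mice, labelled K5VP16;Pparg+/-, carried a VP16;Pparg fusion in Rosa26 behind a CAG promoter, a stop cassette and an Egfp reporter, and Cre under the Krt5 promoter removed the cassette in basal cells once tamoxifen was given at 8 to 12 weeks of age. For the 4-day groups, Gfp-positive urothelial cells were sorted 4 days after tamoxifen, which was injected 3 times in the week before, from 5 mutants with the mTmG reporter and from 4 controls, which the labels list as wild type and the study's methods as K5;mTmG mice that carry the same Cre and reporter without the fusion. For the tumor groups, mice received the carcinogen BBN at 0.05% in drinking water (5 months in the treatment label). By the study's methods tamoxifen followed 1 month of BBN and was given into the bladder, and the 4 months of the titles match its count from tamoxifen. Tissue was laser-captured. Basal tumors of 3 control libraries were set against luminal tumors of mutants (3 libraries), and against the luminal domain of mixed mutant lesions (3 libraries), which was also set against the basal-like domain of such lesions (3 libraries). The study names its tumor controls in some places as VP16;Pparg fl/fl mice and in others as K5;mTmG mice. The labels do not say whether the luminal and basal-like domain libraries came from the same lesions, though their library names are consecutive, nor whether each library is a separate animal, so p-values measure the spread between these libraries.

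Beta-oxidation cuts fatty acids into acetyl-CoA. Long chains enter the mitochondrion as carnitine esters, made by Cpt1 on the outer membrane, carried by Slc25a20 and turned back by Cpt2, and each round then passes through an acyl-CoA dehydrogenase, a hydratase, a hydroxyacyl-CoA dehydrogenase and a thiolase. Peroxisomes shorten very long and branched chains with their own enzymes, and many genes of both routes are textbook targets of the PPAR receptors. Urothelium is a slowly renewing epithelium in which Pparg is known for its part in the differentiation of luminal cells.

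The 250 bases before and 50 after the transcription start, taken from RefSeq on GRCm38.p6, were used for 28 of the 33 genes (29 windows). The 5 genes without a window here were Cpt1b, Crat, Acaa2, Decr1 and Hsd17b4, of which Decr1 and Hsd17b4 passed the test at 4 days. Member windows on a chromosome that was set aside were left out, though that chromosome stayed among all windows. PPAR receptors bind a direct repeat, 2 copies of AGGTCA separated by 1 base. Windows are shown for Slc25a20, among those closest to this repeat, and for some of the genes that passed the test in a comparison. Both strands of each window were searched for this repeat, whose 2 copies hold 12 letters to match. No window of the 29 held it exactly or with 1 mismatch, and 5 (17.2%) held it with at most 2 mismatches, against 3.86% of the 32851 windows in the table. With at most 3 mismatches the shares lay closer together, at 9 of the 29 windows against 24.6% of all windows. The hexamer AGGTCA itself, on either strand and including any copy inside a repeat, was found in 6 windows (20.7%) and in 16.3% of all windows. The 5 genes with at most 2 mismatches were Acox2, Echs1, Etfa, Slc25a20 and Ucp3, and none of these passed the test in any comparison described here. In each window printed next, the capitals mark the stretch of 13 bases with the fewest mismatches to the repeat. A match is a description of the letters and not a binding site, and elements farther from the start lie outside these windows.
Slc25a20, chr9:108661886-108662185, plus strand, 2 mismatches: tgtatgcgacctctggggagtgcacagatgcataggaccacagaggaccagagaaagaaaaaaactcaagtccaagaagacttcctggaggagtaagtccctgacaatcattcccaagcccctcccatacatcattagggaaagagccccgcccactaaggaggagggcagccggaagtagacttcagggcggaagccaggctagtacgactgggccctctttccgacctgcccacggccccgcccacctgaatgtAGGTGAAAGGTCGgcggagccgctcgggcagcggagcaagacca
Ehhadh, chr16:21787785-21788084, minus strand, 4 mismatches: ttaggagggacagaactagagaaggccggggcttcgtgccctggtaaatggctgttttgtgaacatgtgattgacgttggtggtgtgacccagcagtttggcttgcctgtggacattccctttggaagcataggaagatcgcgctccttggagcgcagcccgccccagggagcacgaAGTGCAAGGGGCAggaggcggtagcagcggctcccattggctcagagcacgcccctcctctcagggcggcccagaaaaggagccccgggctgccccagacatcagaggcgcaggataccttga
Eci1, chr17:24426433-24426732, plus strand, 4 mismatches: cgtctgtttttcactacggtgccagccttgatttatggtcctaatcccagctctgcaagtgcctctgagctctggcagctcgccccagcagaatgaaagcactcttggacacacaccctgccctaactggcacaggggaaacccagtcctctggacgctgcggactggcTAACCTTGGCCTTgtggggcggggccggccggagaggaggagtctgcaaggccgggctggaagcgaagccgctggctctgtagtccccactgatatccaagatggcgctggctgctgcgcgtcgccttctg
Acaa1a, chr9:119341044-119341343, plus strand, 5 mismatches: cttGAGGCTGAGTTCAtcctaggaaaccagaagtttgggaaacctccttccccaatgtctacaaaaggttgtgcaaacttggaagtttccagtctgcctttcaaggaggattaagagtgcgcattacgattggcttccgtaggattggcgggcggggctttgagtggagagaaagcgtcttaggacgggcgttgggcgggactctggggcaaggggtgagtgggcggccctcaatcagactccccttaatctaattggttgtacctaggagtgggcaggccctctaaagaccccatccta
Acaa1b, chr9:119157044-119157343, minus strand, 4 mismatches: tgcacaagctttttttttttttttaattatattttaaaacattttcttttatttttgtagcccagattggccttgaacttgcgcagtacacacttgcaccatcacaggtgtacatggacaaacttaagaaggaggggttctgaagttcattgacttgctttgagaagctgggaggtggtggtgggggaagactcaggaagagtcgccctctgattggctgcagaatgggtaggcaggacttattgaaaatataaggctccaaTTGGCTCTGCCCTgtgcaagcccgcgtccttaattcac
Hadhb, chr5:30155003-30155302, plus strand, 4 mismatches: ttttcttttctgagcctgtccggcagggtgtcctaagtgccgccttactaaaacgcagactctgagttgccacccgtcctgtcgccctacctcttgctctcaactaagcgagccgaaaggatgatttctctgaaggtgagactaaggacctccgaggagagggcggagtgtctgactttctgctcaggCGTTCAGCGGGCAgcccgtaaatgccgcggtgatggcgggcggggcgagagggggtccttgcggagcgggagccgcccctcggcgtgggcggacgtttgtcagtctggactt
Ehhadh, Eci1, Acaa1a, Acaa1b and Hadhb each passed the test in at least 1 comparison, and their best stretches had 4 or 5 mismatches. Hadha and Hadhb, which encode the alpha and beta subunits of the mitochondrial trifunctional protein, start 273 bases apart on opposite strands of chromosome 5, so that the Hadhb window printed above shares 228 bases with that of Hadha.

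Transcripts that share sequence can exchange reads, which touches all but 13 of the members to some degree. In GENCODE M21 transcripts on GRCm38, which need not be the index the authors used, 13 members shared no stretch of 31 bases with any other gene, 14 shared up to 30% of theirs, (Eci2 14.8% and Acadm 11.8%, for instance), and 6 shared more. Acaa1a and Acaa1b are near-identical peroxisomal thiolases, and 35.3% of the 31-base stretches of Acaa1a were also in Acaa1b, while 45.7% of those of Acaa1b were in Acaa1a. Their values are therefore uncertain where they could be split between the copies. Cpt1b shared 81.0% of its stretches with Gm44502, Etfb 62.0% with Gm45233, Hadhb 61.2% with Gm13910 and Acadvl 32.3% with Dvl2. How many reads such genes exchanged was not tested.

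The authors' values are normalized counts, and the number of reads behind each library is not in the tables, though the study's methods name a target depth. They summed to between 36520193 and 41435665 per library at 4 days and to between 41697178 and 53252995 in the table of luminal and basal tumors. Genes were tested with limma on log2(normalized count + 1) if the number of libraries that reached 10 normalized counts was no less than the size of the smaller group, on a scale where the change of low genes is understated, and a gene was called where its Benjamini-Hochberg adjusted p over all genes tested was below 0.05. Fabp4, an established Pparg target that checks the transgene, rose at 4 days (log2 fold change 4.64, standard error, SE, 0.49, adjusted p = 0.00171), and Pparg itself, to whose values reads of the fusion may add, had a log2 fold change of -0.36 (SE 0.12, adjusted p = 0.126). Pparg rose in luminal against basal tumors (log2 fold change 6.74, SE 0.80, adjusted p = 0.0135). At 4 days the summed Y-linked genes lay between 338 and 395 in the 5 mutants and at 404 in the control library listed first, but between 9030 and 9177 in the other 3 controls, so the Y-linked level nearly follows genotype. Sorted cells of both genotypes held luminal as well as basal urothelial markers. The 7 luminal markers summed to 201277 to 381194 in controls and 252099 to 493810 in mutants. All 7 had positive log2 fold changes (median 0.61, 1 called higher by limma, 3 at an unadjusted p under 0.05). The 5 basal markers summed to 141693 to 177228 in controls and, without overlap, to 97763 to 137499 in mutants. Of these 5 basal markers 2 had positive and 3 negative log2 fold changes, with 1 called higher and 1 lower, so the lower sum does not hold for each of them. The 6 fibroblast markers summed to 11651 to 84707 in controls and 30652 to 217371 in mutants, and all 6 had positive log2 fold changes (median 2.02, 1 called higher, 5 at an unadjusted p under 0.05). The 6 smooth muscle markers summed to 174 to 1042 and 410 to 2719, again with 6 positive log2 fold changes (median 1.75, 0 called by limma, 4 at an unadjusted p under 0.05, 3 without overlap). The 6 adipocyte markers to 30 to 62 and 41 to 294, with 1 to 3 and 1 to 2 of them at 0.

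In the sorted cells at 4 days, the oxidation genes were mostly higher in mutants by a modest amount. All 33 were tested, 28 had a positive and 5 a negative log2 fold change, and 6 were called, all higher, namely Decr1, Ehhadh, Crot, Cpt2, Acadvl and Hsd17b4. That is 6 of 33 against a background of 1.77% of the 16413 genes tested called higher, and 0 members against a background of 1.08% called lower. The groups did not overlap for 8 members that were higher, where 4.67% of all genes tested did so, and for 1 that was lower, Ucp2, where 4.51% did so. The median log2 fold change of the members was 0.31, while that of all genes tested was 0.00. Averaged over the 33 genes, log2(normalized count + 1) was 11.27 to 11.53 in the controls and 11.71 to 11.86 in the mutants. Their summed share of the library overlapped, at 0.597% to 0.666% in controls and 0.610% to 0.754% in mutants. By role, the median was 0.51 for the carnitine shuttle, 0.19 for the dehydrogenases, 0.29 for the later steps, 0.28 for the auxiliary enzymes, 0.40 for the peroxisomal enzymes and -0.22 for fuel choice and uncoupling. In these bulk samples fewer cells of a type and less RNA per cell cannot be told apart.

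**Figure D1:**
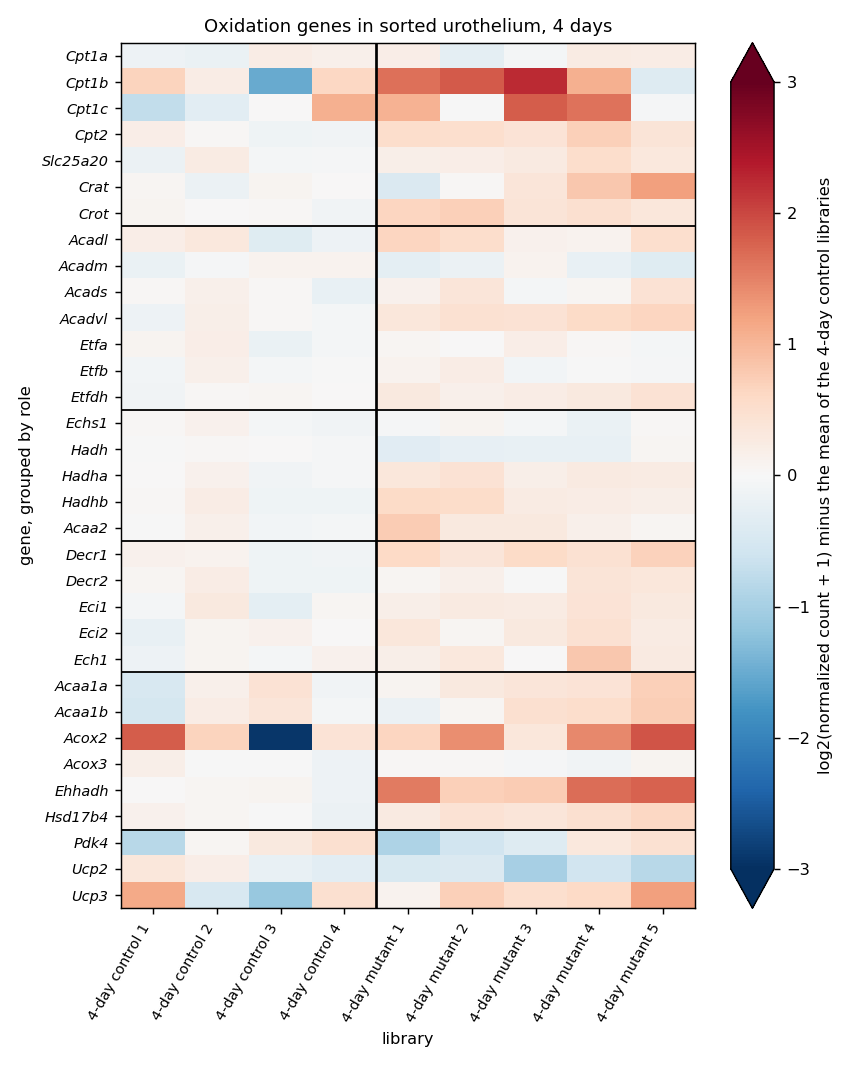
Heat map of the 33 oxidation genes (rows, in 6 roles separated by lines) in the 4 control and 5 mutant libraries at 4 days (columns), coloured by log2(normalized count + 1) minus the mean of the controls. Most rows are redder in the mutant columns, Ehhadh is red and Ucp2 blue in every mutant.

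Of the carnitine shuttle, the inner-membrane and the peroxisomal transferase rose. Cpt2, the inner-membrane transferase that frees acyl-CoA in the matrix, was at 3128, 2790, 2494 and 2529 normalized counts in the controls and at 3952, 3877, 3630, 4463 and 3589 in the mutants. Every mutant library lay above every control, with means of 2735 ± 294 (SD, n = 4) and 3902 ± 350 (n = 5), a log2 fold change of 0.51 (SE 0.10, limma adjusted p = 0.0283). Crot, the peroxisomal carnitine octanoyltransferase that exports shortened chains, was at 5480, 5247, 5307 and 4846 in the controls and at 8132, 8507, 6843, 7309 and 6622 in the mutants. Its groups did not overlap either, and its log2 fold change was also 0.51 (SE 0.10, adjusted p = 0.0239). Cpt1a, the outer-membrane enzyme that limits the entry of long chains, averaged 13743 ± 2013 in controls and 14408 ± 2164 in mutants, with overlapping libraries and a log2 fold change of 0.07 (SE 0.14, adjusted p = 0.826). The carrier Slc25a20 (log2 fold change 0.30, adjusted p = 0.162), the acetyltransferase Crat (0.40, 0.470), the muscle form Cpt1b (1.28, 0.279) and the form best known from the brain, Cpt1c (0.89, 0.329), were not called. Crat spread from 1909 to 6067 normalized counts among the mutants, on either side of the controls (2280 to 2734). Cpt1b was low, at 2.36 to 14.2 in controls and 6.38 to 43.9 in mutants.

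Among the acyl-CoA dehydrogenases, the enzyme for the longest chains was called and the medium-chain enzyme lay on the other side of 0. Acadvl, very long-chain acyl-CoA dehydrogenase, was at 6362, 8036, 7243 and 6843 normalized counts in controls and at 9044, 9771, 9543, 10504 and 11072 in mutants. All mutants lay above all controls, and the log2 fold change was 0.49 (SE 0.10, limma adjusted p = 0.0291). The log2 fold changes of the long-chain (Acadl), short-chain (Acads) and medium-chain (Acadm) enzymes were 0.37, 0.19 and -0.19, and their groups overlapped (adjusted p = 0.247, 0.424 and 0.359). Etfdh, which passes the electrons on to ubiquinone, did not overlap between groups (2590 to 2875 in controls, 3092 to 3746 in mutants) but missed the threshold with a log2 fold change of 0.28 (SE 0.08, adjusted p = 0.0923). The subunits of the electron transfer flavoprotein, Etfa and Etfb, had log2 fold changes of 0.04 and 0.03 (SEs 0.10 and 0.09).

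None of the 5 genes of the later mitochondrial steps was called by limma, and 3 of them had an unadjusted p under 0.05. Of all 16413 genes tested in this fit, 3418 had an unadjusted p under 0.05. Hadha lay at 5861, 6418, 5444 and 5654 in controls and at 7435, 7881, 6554, 7008 and 6911 in mutants. The groups were apart, with a log2 fold change of 0.29 (SE 0.09, adjusted p = 0.0928). Hadhb, its partner subunit, had a log2 fold change of 0.36 (SE 0.12, adjusted p = 0.131) and 1 control library, at 10717, above 1 mutant, at 10450. Acaa2, the mitochondrial thiolase, had 0.32 (SE 0.14, adjusted p = 0.236). Echs1, the short-chain hydratase, and Hadh, the short-chain hydroxyacyl-CoA dehydrogenase, had negative values of -0.03 and -0.19 (adjusted p = 0.851 and 0.273).

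The auxiliary enzymes, which move or remove the unsaturated bonds that stop the cycle, all had positive log2 fold changes, and Decr1 was called. Decr1, the mitochondrial 2,4-dienoyl-CoA reductase, was at 2889, 2862, 2406 and 2437 normalized counts in controls and at 3987, 3416, 3946, 3641 and 4271 in mutants. The libraries were fully separated, with means of 2649 ± 263 (SD, n = 4) and 3852 ± 331 (n = 5), a log2 fold change of 0.54 (SE 0.10) and the smallest adjusted p of the 33 genes, 0.0216 in limma. Decr2, Eci1, Eci2 and Ech1 had log2 fold changes from 0.19 to 0.31, and their adjusted p lay between 0.178 and 0.378.

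In the peroxisomal group, Ehhadh showed the largest difference among the abundant members. Ehhadh, the bifunctional enzyme that carries out the middle steps of peroxisomal oxidation, was at 965, 991, 1019 and 856 normalized counts in controls and at 2821, 1560, 1608, 3063 and 3259 in mutants. The controls lay close together, and the mutants fell into 3 libraries near 3000 and 2 near 1600, all above the controls. The means were 958 ± 71 (SD, n = 4) and 2462 ± 817 (n = 5), a log2 fold change of 1.29 (SE 0.24, limma adjusted p = 0.0220). Hsd17b4, the other bifunctional enzyme, was at 5754, 5480, 5256 and 4674 in controls and at 6310, 7152, 6844, 7372 and 8149 in mutants. Its libraries did not overlap, and its log2 fold change was 0.44 (SE 0.10, adjusted p = 0.0457). The thiolases Acaa1a and Acaa1b, uncertain as near-identical copies, had overlapping groups and log2 fold changes of 0.37 and 0.32 (adjusted p = 0.294 and 0.470). Acox3, an oxidase of branched chains, averaged 2635 ± 240 in controls and 2637 ± 137 in mutants (log2 fold change 0.00, SE 0.09), and Acox2 stayed at or below 27.0 normalized counts in every library.

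Of the genes of fuel choice and uncoupling, none was called by limma, and 1 had an unadjusted p under 0.05. Ucp2, an uncoupling protein of the inner membrane, was at 40219, 36344, 27014 and 25461 normalized counts in controls and at 22907, 23297, 15990, 21147 and 17722 in mutants. Every mutant lay below every control, with a log2 fold change of -0.66 (SE 0.17) that missed the threshold (adjusted p = 0.0711). It passed in 3 alternative limma fits, namely with array weights, after quantile normalization and after upper-quartile scaling, with a lowest adjusted p of 0.0250. Over all genes these fits called 1054, 557 and 528, against 467 in the main fit. Pdk4, the kinase that shuts pyruvate dehydrogenase when fat is burned, had a log2 fold change of -0.22 (SE 0.33, adjusted p = 0.748), with controls at 2534 to 6283 and mutants at 2367 to 6203. Ucp3 lay between 2.51 and 17.0 in all 9 libraries.

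**Figure D2:**
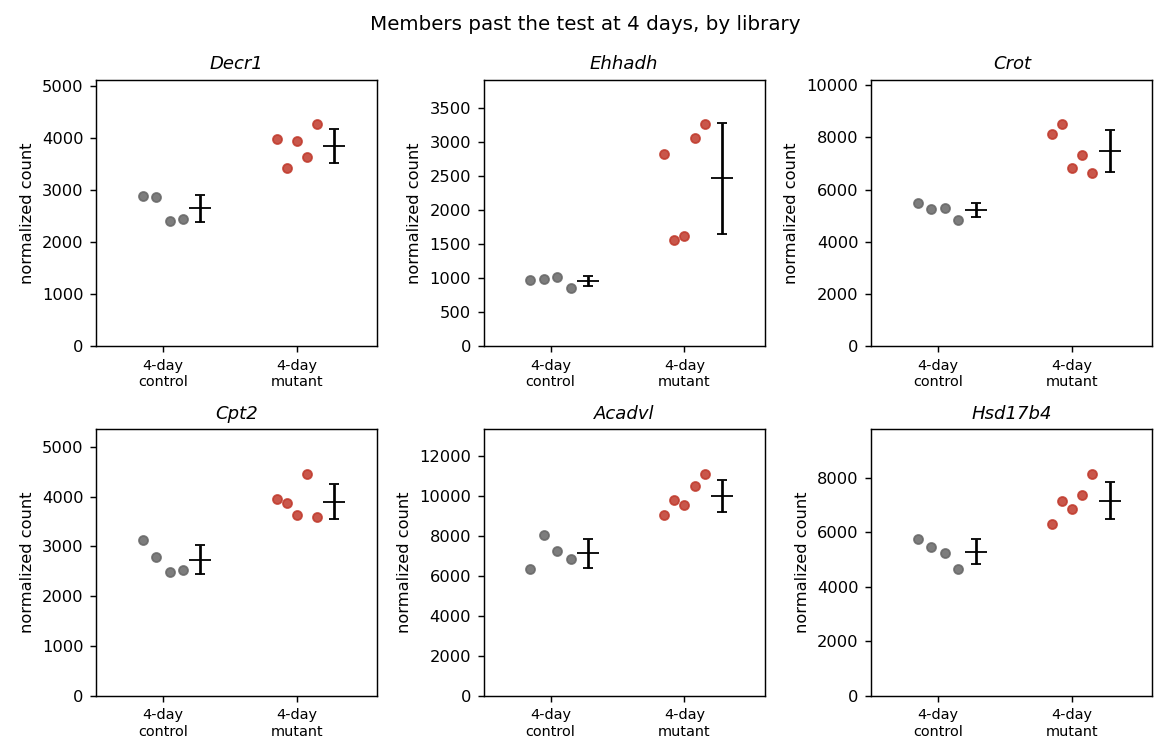
Normalized counts of the 6 oxidation genes called at 4 days, with a panel for each gene, a point for each library and a bar for mean ± SD (4 controls, 5 mutants). In every panel the 5 mutant points lie above the 4 control points, and in Ehhadh the mutants separate into 3 high and 2 lower libraries.

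The 6 calls rest on all libraries. Without each library in turn, limma called 0 to 5 members, with 0 without control library 3, 0 without control 4, 1 without control 2 and 2 without mutant 3 (in the order of the table), whereas every log2 fold change of the 6 genes stayed between 0.38 and 1.44. Over all genes, calls fell from 467 to 129, 169, 154 and 228 in these fits, in the same order, and rose to 596 without mutant 2. With a term for high or low Y-linked genes, which leaves 1 control against 5 mutants, 0 members and 26 of all genes were called, and the 6 genes had log2 fold changes from 0.31 to 1.28 (adjusted p from 0.271 to 0.648). Without the control that shared the low Y-linked values, 4 of the 6 remained called. The part of sex and of the marker differences above in these results was not tested.

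Other genes of the pathway were read in the same fit at 4 days, where 4 of the 46 tested were called higher and 1 lower, and those reported here follow. Bdh1, the mitochondrial hydroxybutyrate dehydrogenase and 1 of the 8 ketone body genes, rose from 600 ± 95 (SD, n = 4) to 1164 ± 258 (n = 5) (log2 fold change 0.94, SE 0.18, adjusted p = 0.0294). Slc22a5, the carnitine importer of the plasma membrane, rose from 2279 ± 181 to 3139 ± 265 (log2 fold change 0.46, SE 0.09, adjusted p = 0.0310). Pdk1, which like Pdk4 inhibits pyruvate dehydrogenase, fell from 5005 ± 530 to 3591 ± 279 (log2 fold change -0.48, SE 0.10, adjusted p = 0.0310). Of the 8 ketone body genes 7 had positive and 1 a negative log2 fold change (median 0.81), and across the 21 other oxidation enzymes the median was -0.04.

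For scale, 2 lists of neighbouring metabolism were read in the same fit. Of 31 nuclear genes of oxidative phosphorylation, limma called 0 (5 at an unadjusted p under 0.05), and their median log2 fold change was 0.19. Of 26 genes of fatty acid synthesis, elongation and activation, 23 were tested and 3 were called, all higher (Elovl1, Hsd17b12 and Acsl4), with a median of 0.32. The members' median of 0.31 thus lay beside that of the synthesis genes and above that of the respiratory chain, a difference that was not tested. By sign alone the lists were alike. Positive log2 fold changes were found for 28 of 33 members, 26 of 31 oxidative phosphorylation genes and 18 of 23 synthesis genes.

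In whole luminal tumors, again most oxidation genes had higher values than in basal tumors, with larger differences and a wider spread. Of the 33 genes 31 were tested, since Acox2 and Ucp3 were too low, and 26 log2 fold changes were positive and 5 negative. Acaa1b and Eci1 were called, 2 of 31, both higher, against 1.26% of the 15357 genes tested called higher, and 0 members were called lower, against 0.938%. The libraries of the groups did not overlap for 13 higher members, against 9.98% of all genes tested, and for 1 lower member, Cpt1c, against 11.6%. The median log2 fold change was 0.87 for the members and -0.11 for all genes tested. The members' mean of log2(normalized count + 1), over the 31 genes tested, was 9.54, 10.39 and 10.33 in the basal tumors and 10.98, 11.01 and 10.89 in the luminal tumors. As a share of the library they made up 0.118%, 0.274% and 0.206% in basal and 0.273%, 0.304% and 0.327% in luminal tumors, so that the groups overlapped, and the library totals were higher in luminal tumors (51007932 to 53252995) than in basal ones (41697178 to 44654343). The basal tumor listed first was the lowest, and without it the median was 0.68 and 0 members were called (14 of all genes, against 338 with it). Leaving out luminal tumor 1 or luminal tumor 2 also left 0 members called, and 3 of all genes each time, whereas without luminal tumor 3 there were 3 members and 813 of all genes. By role, the median was 0.38 for the carnitine shuttle, 0.87 for the dehydrogenases, 0.75 for the later steps, 1.27 for the auxiliary enzymes, 1.09 for the peroxisomal enzymes and 2.38 for fuel choice and uncoupling.

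**Figure D3:**
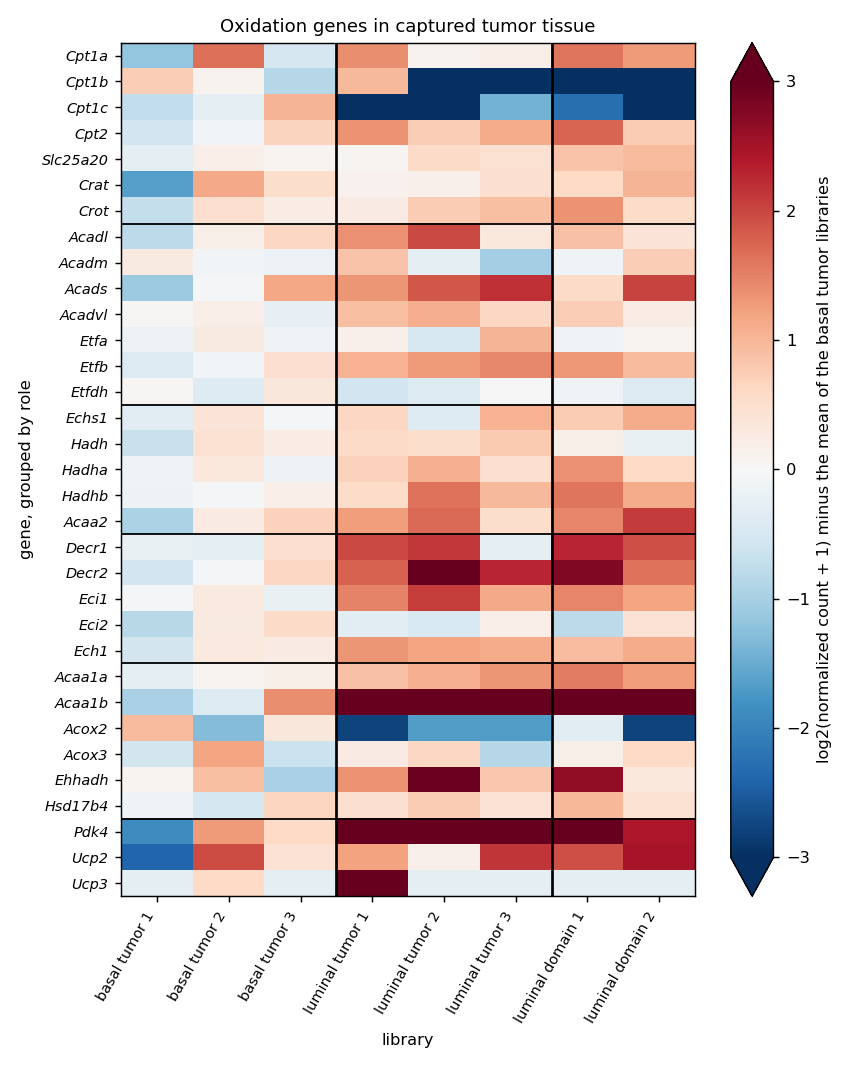
Heat map of the 33 oxidation genes in 3 basal tumor, 3 luminal tumor and 2 luminal domain libraries of a jointly normalized table, coloured by log2(normalized count + 1) minus the mean of the basal tumors and saturated beyond 3 log2 units. Acaa1b, Pdk4 and Decr2 are red in the luminal columns, Cpt1c is blue there, and the basal tumor listed first is bluest among its group.

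Acaa1b, the peroxisomal 3-ketoacyl-CoA thiolase, was the member with the largest difference. It was at 5.9, 9.2 and 35.1 normalized counts in the basal tumors and at 1725, 2523 and 2326 in the luminal tumors, with a log2 fold change of 7.31 (SE 0.88, limma adjusted p = 0.0143). Here and for the other tumor values, parentheses hold the log2 fold change, its SE and the limma adjusted p. Its copy Acaa1a was present in both tissues, at 2505, 3180 and 3386 against 5512, 6241 and 7557, also without overlap (1.09, SE 0.29, adjusted p = 0.0888). In the basal tumors, then, Acaa1b was near 0 while its copy was not. Eci1, which shifts unsaturated bonds so that the chain can re-enter the cycle, was at 2501, 3204 and 2217 in basal tumors and at 7280, 11038 and 5716 in luminal tumors. All luminal tumors lay above all basal ones (1.56, SE 0.33, adjusted p = 0.0474).

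The remaining 11 members that were higher without overlap came from every role and missed the threshold. In the order of their roles they were Cpt2, Acads, Acadvl, Etfb, Hadh, Hadha, Hadhb, Decr2, Ech1, Acaa1a and Pdk4, with log2 fold changes from 0.63 for Hadh to 3.59 for Pdk4 and limma adjusted p from 0.0655 for Decr2 to 0.397 for Hadh. Decr2, the peroxisomal dienoyl-CoA reductase, was at 343, 502 and 783 in basal and at 1758, 8931 and 2506 in luminal tumors. Its lowest luminal value was more than its highest basal value, but the luminal tumors themselves ranged widely (log2 fold change 2.73, SE 0.64). Pdk4 was at 5.81, 60.1 and 36.9 in basal and at 214, 456 and 281 in luminal tumors, again low but apart (3.59, adjusted p = 0.145). Cpt1c lay the other way, at 210, 290 and 717 in basal tumors and at 5.41, 10.3 and 131 in luminal tumors (-4.06, SE 1.53, adjusted p = 0.201). Decr1, called at 4 days, was at 777, 739 and 1276 in basal tumors and at 3556, 3903 and 739 in luminal tumors. Luminal tumor 3 lay with the basal tumors, and Decr1 was not called over all 3 (1.27, SE 0.62, adjusted p = 0.314). With each library left out in turn it was called only without luminal tumor 3 (2.05, adjusted p = 0.0299), where more of all genes were called too. Of the other genes called at 4 days, Cpt2 and Acadvl had log2 fold changes of 1.06 and 0.87, and Crot, Ehhadh and Hsd17b4 of 0.64, 1.70 and 0.56 with overlapping groups, all with adjusted p of at least 0.194. The entry enzyme Cpt1a overlapped here too, spreading from 434 to 3023 in basal tumors and from 1042 to 2532 in luminal tumors (0.57, SE 0.70). The remaining 12 genes tested also overlapped and were not called (adjusted p from 0.229 to 0.997). Their log2 fold changes were positive for Slc25a20 (0.38), Crat (0.25), Acadl (1.23), Etfa (0.23), Echs1 (0.43), Acaa2 (1.16), Acox3 (0.01) and Ucp2 (1.17) and negative for Cpt1b (-2.72), Etfdh (-0.33), Eci2 (-0.20) and Acadm (-0.14).

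**Figure D4:**
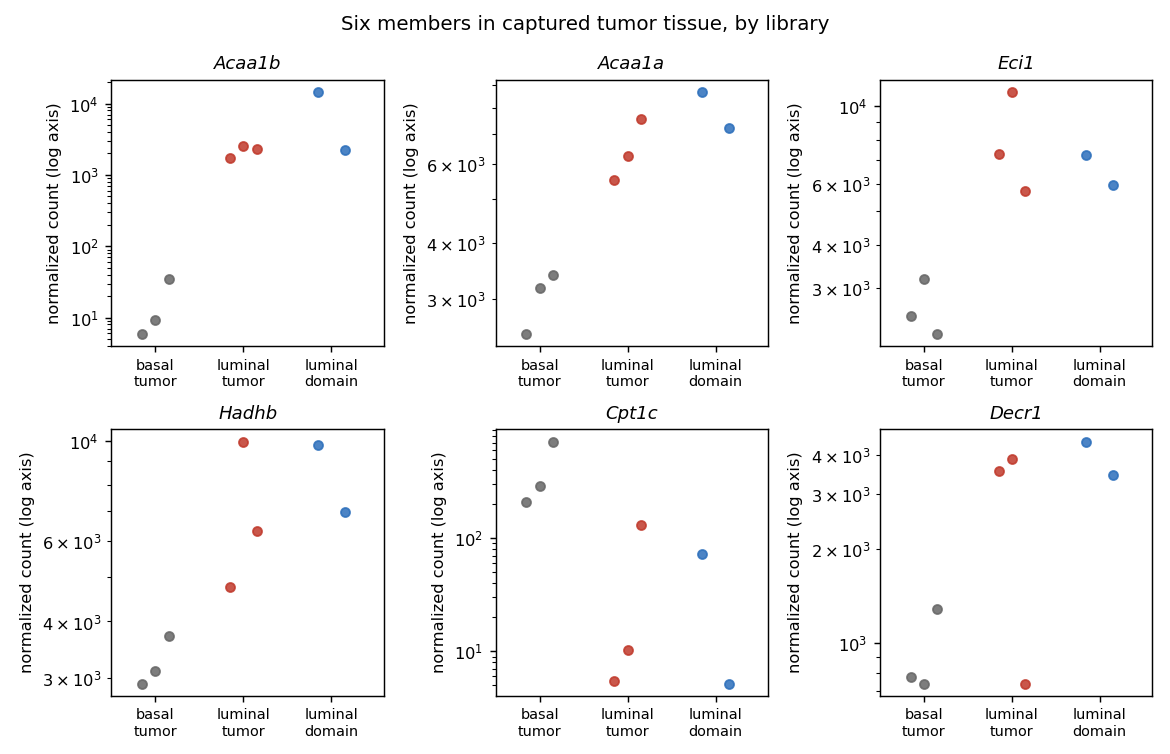
Normalized counts (log axis) of 6 oxidation genes in the jointly normalized table of 3 basal tumor, 3 luminal tumor and 2 luminal domain libraries, with a point for each library. Acaa1b lies below 40 in the basal tumors and above 1700 elsewhere, Acaa1a, Eci1 and Hadhb differ less but without overlap, Cpt1c is higher in basal tumors, and 1 luminal tumor has Decr1 at the basal level.

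The captured tissues also differed in their cell type markers. The 4 epithelial markers summed to 47670 to 89254 in basal and 263752 to 359400 in luminal tumors, and the 7 luminal urothelial markers to 4305 to 20094 and 149067 to 876186. Of the epithelial markers 3 had positive log2 fold changes and 1 a negative one (-0.18), so the higher sum does not hold for each of them. The 6 fibroblast markers summed to 44454 to 66575 in basal and 212 to 17130 in luminal tumors, the 6 smooth muscle markers to 6010 to 51207 and 150 to 1254, and the 6 leukocyte markers to 25138 to 131769 and 752 to 8686. The 5 basal urothelial markers summed to 294354 to 660773 in basal and 14061 to 201081 in luminal tumors, and the 5 endothelial markers to 1309 to 3257 and 374 to 1091, all 10 with negative log2 fold changes and 1 of them, a basal urothelial marker, called. None of these sums overlapped between the groups, and their part in the differences of the oxidation genes was not tested. The basal tumor listed first, which was lowest for the oxidation genes, also had the lowest epithelial sum (47670). Its leukocyte sum was 131769, against 25581 and 25138 in the other basal tumors. Averaged over the 6 leukocyte markers, however, log2(normalized count + 1) was 8.35 in it, against 10.12 and 8.02. Its higher sum thus does not hold for each marker, and Cd79a was at 0 in it. The adipocyte markers were low in both (14 to 98 and 9 to 66, with 2 to 4 and 3 to 4 of 6 at 0), as were the skeletal muscle markers in luminal tumors (66 to 255, against 162 to 1665).

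Among the 47 other genes of the pathway, 44 were tested in tumors and 2 were called, both higher. Phyh, which starts the oxidation of phytanic acid in peroxisomes, was at 585, 989 and 805 normalized counts in basal tumors and at 5274, 18884 and 6623 in luminal tumors. The groups lay far apart (log2 fold change 3.49, SE 0.57, limma adjusted p = 0.0292). Acot8, a peroxisomal thioesterase, rose from 703 ± 83 (SD, n = 3) to 2447 ± 248 (n = 3) (1.80, SE 0.34, adjusted p = 0.0364). Of the 8 ketone body genes limma called 0, with 3 at an unadjusted p under 0.05, and 6 log2 fold changes were negative and 2 positive (median -0.29). The nuclear genes of oxidative phosphorylation gave 0 calls (5 at an unadjusted p under 0.05) and a median of 0.33, and the synthesis genes 0 calls (5) and a median of 0.48. Their log2 fold changes were positive for 28 of 31 and 18 of 23 genes, beside 26 of 31 members. Of all 15357 genes tested in this limma fit, 2820 had an unadjusted p under 0.05.

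The luminal domain of mixed lesions was compared with the same basal tumors in a table normalized on its own, so its values are not independent of those of the luminal tumors. Of 31 genes tested, 28 log2 fold changes were positive and 3 negative, and 4 were called, all higher, namely Acaa1b, Acaa1a, Eci1 and Hadhb, against 1.70% of the 14921 genes tested called higher. No member was called lower, against 0.824%. The groups did not overlap for 15 higher members (14.0% of all genes tested) and 1 lower member, Cpt1c (12.8%). The median was 0.97 for the members and 0.01 for all genes tested. By role it was 0.85 for the carnitine shuttle, 0.52 for the dehydrogenases, 1.14 for the later steps, 1.40 for the auxiliary enzymes and 1.12 for the peroxisomal enzymes, and both genes of fuel choice and uncoupling had positive values. The 15 members that overlapped were not called (adjusted p from 0.156 to 0.932), with log2 fold changes from -2.56 for Cpt1b to 1.70 for Cpt1a, and Cpt1b and Etfdh (-0.11) were the negative ones among them.

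Here too Acaa1b differed most, at 6.23, 9.54 and 36.7 in basal tumors and at 15655, 2463 and 2815 in the luminal domain. The domain listed first held over 5 times as much as the others, and the log2 fold change was 8.39 (SE 1.01, limma adjusted p = 0.0205). Acaa1a was at 2626, 3269 and 3510 against 9226, 7758 and 7602, with narrow groups far apart (1.39, SE 0.25, adjusted p = 0.0383). Eci1 was at 2628, 3301 and 2303 against 7709, 6428 and 7438, likewise (1.40, SE 0.26, adjusted p = 0.0407). Hadhb, the trifunctional beta subunit that carries the thiolase of long chains, was at 3092, 3231 and 3887 against 10541, 7581 and 8178, and was also apart (1.36, SE 0.26, adjusted p = 0.0437). Hadha, across the shared promoter, was at 2057, 2745 and 1957 against 5927, 3508 and 3779 and was not called (0.94, SE 0.32, adjusted p = 0.155). Acaa2, which takes the shorter chains, ranged from 3224 to 9934 in basal tumors and from 17298 to 27131 in the luminal domain (1.74, SE 0.43, adjusted p = 0.0814). Of the 15 genes apart, the others were Slc25a20, Crot, Acadvl, Etfb, Echs1, Decr2, Ech1, Pdk4 and Ucp2, with log2 fold changes from 0.52 for Acadvl to 3.81 for Pdk4. Ucp2, which had a negative but uncalled log2 fold change at 4 days, was at 2072, 41138 and 14372 in basal tumors and at 41774, 61479 and 46292 in the luminal domain, where the basal tumors spread far more than the domains (2.20, SE 0.93, adjusted p = 0.232). Cpt1c was at 219, 296 and 740 against 77.4, 5.56 and 26.1 (-3.92, adjusted p = 0.125).

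These calls depended on single libraries. Without the basal tumor listed first, limma called 0 members and the median was 0.81, and without any 1 of the 3 luminal domain libraries it called 0 members, with medians from 0.75 to 1.01. The whole table behaved alike, with 0 to 3 genes called of all genes tested once a domain library was left out, against 377 with it. As in the luminal tumors, the sum of the epithelial markers was higher in the domain (227544 to 442425 against 50313 to 92444). The sums of fibroblast (5011 to 31289 against 45948 to 70263), smooth muscle (1430 to 1911 against 6298 to 57231) and leukocyte markers (8329 to 14881 against 26228 to 138684) were lower. These sums do not hold for each marker. Of 5 leukocyte markers tested, 2 log2 fold changes were positive and 3 negative (median -0.5, 0 called), and of 4 epithelial markers 3 were positive and 1 negative. Luminal urothelial markers were higher too (115649 to 501763 against 4529 to 20737), and basal urothelial markers were lower (168986 to 273877 against 318350 to 705768). The part of all these markers was not tested. Of the other genes of the pathway, Phyh was called, at 614, 1018 and 836 in basal tumors and 15559, 4825 and 7625 in the luminal domain (3.36, SE 0.46, adjusted p = 0.0239). The 8 ketone body genes gave 0 calls (4 at an unadjusted p under 0.05), with 4 positive and 4 negative log2 fold changes (median -0.35), and 3 of them were lower and 1 higher without overlap. Oxidative phosphorylation gave 0 calls (0 at an unadjusted p under 0.05) and a median of 0.06, and fatty acid synthesis 0 calls (9) and a median of 0.64. Their log2 fold changes were positive for 19 of 31 and 19 of 23 genes, beside 28 of 31 members. Of all 14921 genes tested in this limma fit, 3072 had an unadjusted p under 0.05.

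Between the luminal and the basal-like domain of mixed lesions, the median difference of the oxidation genes was small, though single members differed more. Limma called 0 members in either direction, as it called 0 of the 14874 genes tested higher (0%) and 0 lower (0%). At an unadjusted p under 0.05 there was 1 member and 757 of all genes, and without a trend in eBayes 0 members and 20 of all genes were called. The members' median log2 fold change, luminal minus basal-like, was 0.30, against -0.01 for all genes tested, with 23 positive and 8 negative values. The libraries did not overlap for 3 higher members, against 5.14% of all genes tested, and for 1 lower member, Hadh, against 5.62%. Acaa1a was at 6037, 4073 and 6404 in the basal-like and at 9294, 7916 and 7750 in the luminal domain (log2 fold change 0.62, SE 0.24, adjusted p = 0.935). Ech1, a peroxisomal and mitochondrial dienoyl-CoA isomerase, was at 9772, 8172 and 9069 against 11331, 13305 and 11874 (0.44, SE 0.19, adjusted p = 0.935). For both genes every luminal library lay above every basal-like one. Hsd17b4 was at 1033, 1916 and 1701 against 2803, 1982 and 2370 (0.66, SE 0.32, adjusted p = 0.935), with the nearest libraries at 1916 and 1982. Hadh was at 3815, 3535 and 3360 against 3197, 2475 and 3082 and so was lower in the luminal domain (-0.30, SE 0.22, adjusted p = 0.947). The other 27 members overlapped, with log2 fold changes from -2.86 for Cpt1b to 1.28 for Decr1. By role the median was 0.12 for the carnitine shuttle, 0.25 for the dehydrogenases, 0.18 for the later steps, 0.44 for the auxiliary enzymes, 0.66 for the peroxisomal enzymes and 0.15 for fuel choice and uncoupling. Of the markers, 6 of 6 fibroblast markers had negative log2 fold changes (median -1.70, sums of 5225 to 32313 in the luminal and 13859 to 104068 in the basal-like domain), as did 5 of 5 basal urothelial markers (median -0.52), and 7 of 7 luminal urothelial markers had positive ones (median 1.88). None of these markers was called, and their part in the values of the members was not tested.

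Acaa1b was at 6761, 1221 and 1568 in the basal-like domain and at 15774, 2514 and 2870 in the luminal domain. The groups overlapped, since the basal-like library listed first exceeded 2 of the luminal ones (1.04, SE 0.84, adjusted p = 0.949). Paired by consecutive library names, a pairing chosen after the data were seen and stated nowhere in the labels, Acaa1b was higher in the luminal domain in 3 of 3 pairs, by 1.22, 1.04 and 0.87 on the log2 scale, with an SE of 0.18 and a limma adjusted p of 0.146. Decr1 was higher by 1.01, 0.99 and 1.83 (SE 0.26 with pairs, 0.77 without, adjusted p = 0.171 with pairs). These differences were steadier within pairs than between libraries, and still 0 members were called. In this paired limma fit 7 of 31 members had an unadjusted p under 0.05, as had 1858 of the 14874 genes tested. Without a trend in eBayes these were 2 members and 1335 genes. In the same direction in all pairs were 15 of 31 members higher and 2 lower, against 17.6% and 17.7% of all genes tested. Eci1 and Hadhb, called against basal tumors, had log2 fold changes of 0.39 and 0.34 between the domains, with SE of 0.32 and 0.23. Cpt1c was low in both domains (6.25 to 70.5 and 6.1 to 84.0). Pparg itself was at 3230, 2902 and 2326 in the basal-like and at 5427, 5086 and 4116 in the luminal domain, without overlap (0.79, SE 0.24, adjusted p = 0.864).

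The luminal tumors and the 2 luminal domain libraries of the same table were compared directly. Limma called 0 members and 0 genes in all, 0% higher and 0% lower, and 0 members had an unadjusted p under 0.05. Of 31 log2 fold changes, luminal tumor minus luminal domain, 12 were positive and 19 negative, and they ranged from -1.41 for Acaa1b (SE 0.99) to 1.84 for Cpt1b (1.84). With 3 against 2 libraries, a difference of this size was within the error, and the values do not show that the tissues are alike.

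**Figure D5:**
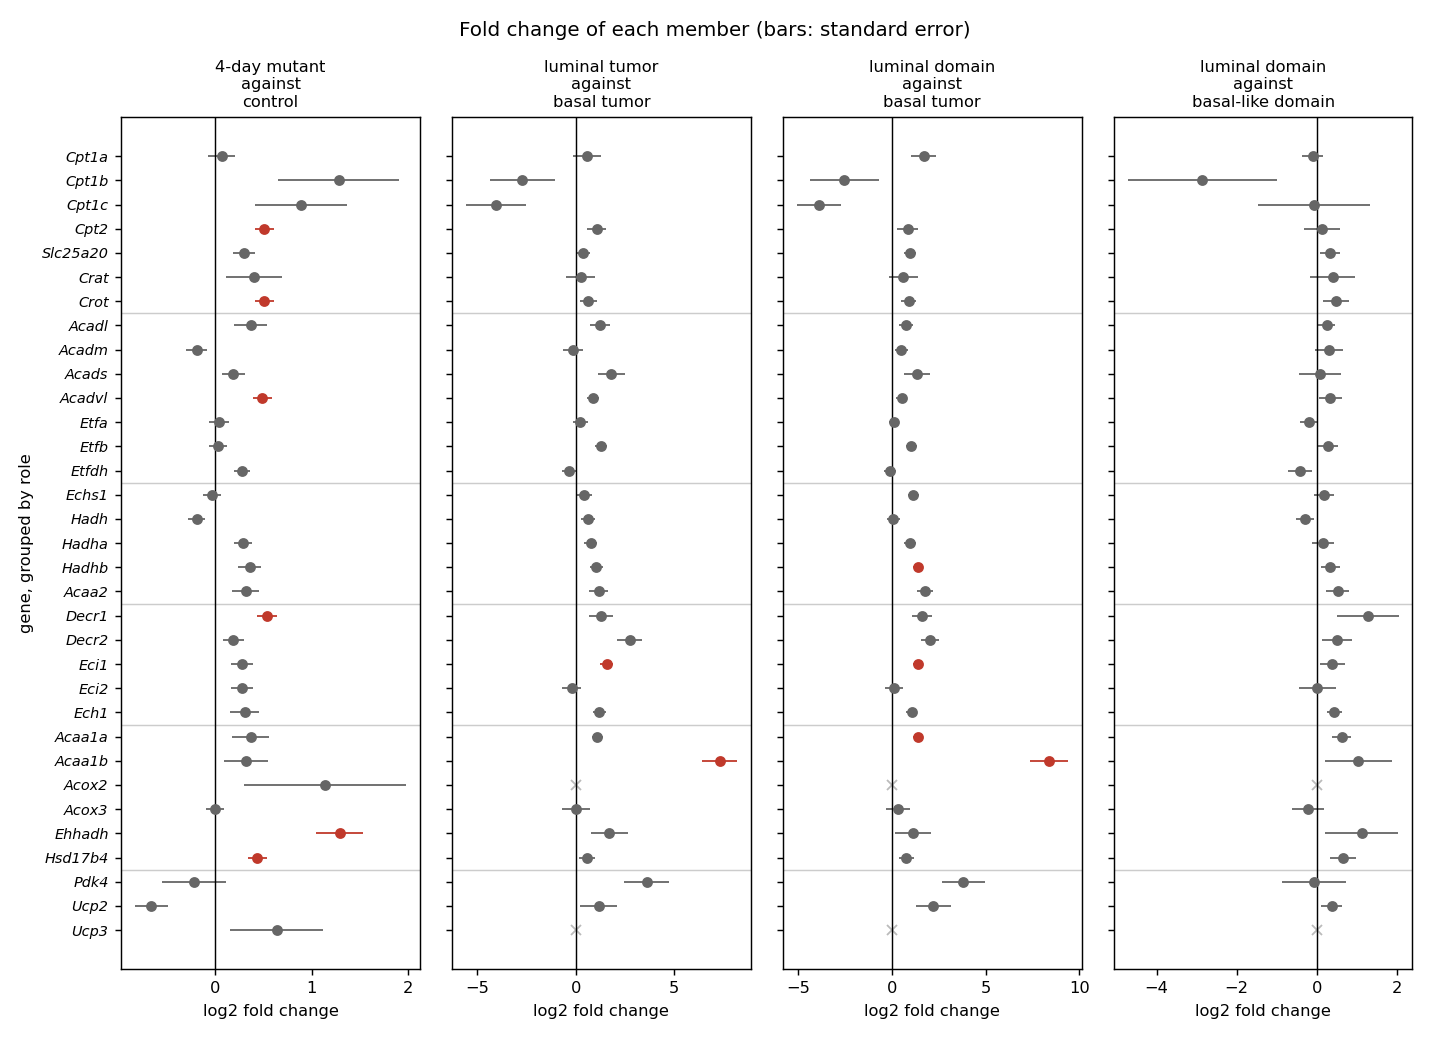
Log2 fold change of each oxidation gene (points) with its SE (bars) in the 4 comparisons, on a scale of its own for each panel, with called genes in red and genes too low to test as grey crosses at 0. Most points lie right of 0 in the first 3 panels, by less than 1 at 4 days apart from Cpt1b, Acox2 and Ehhadh, and Acaa1b stands far to the right in both comparisons with basal tumors.

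The log2 fold changes of some members were set side by side, and whether they differ between the 4-day cells and the tumors was not tested. Ehhadh had log2 fold changes of 1.29 at 4 days, 1.70 in luminal tumors, 1.12 in the luminal domain against basal tumors and 1.12 between the domains. Its libraries overlapped in all 3 tumor comparisons (262 to 1147 in luminal tumors against 74.8 to 279 in basal tumors). With the domains paired by consecutive library names, its log2 differences were 3.99, -0.15 and -0.47, so it was higher in the luminal domain in 1 of 3 pairs. Acaa1b had 0.32, 7.31, 8.39 and 1.04. In the sorted cells it was at 31543 to 58243 normalized counts in controls, in a table whose values are scaled apart from those of the tumors. Eci1 had 0.28, 1.56, 1.40 and 0.39, and Hadhb 0.36, 1.05, 1.36 and 0.34. The entry step Cpt1a had 0.07, 0.57, 1.70 and -0.10 and was not called in any of the 4. Pdk4 and Ucp2 had negative values at 4 days (-0.22 and -0.66) and positive values against basal tumors in the luminal tumors (3.59 and 1.17) and the luminal domain (3.81 and 2.20), all of them uncalled. With the term for Y-linked genes, which leaves 1 control against 5 mutants, the 4-day value was 0.61 for Pdk4 and -1.01 for Ucp2.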

How the data were processed

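RNA was sequenced from sorted urothelial cells and laser-captured tumors after SMART-Seq v4 and Nextera XT preparation. The authors estimated transcripts with kallisto (0.44.0 in the submitters' processing notes), summed them to genes and normalized each table with DESeq2 (1.18), and it is this normalized signal, not raw counts, that was deposited. The index is not given in the sources used here, and GRCm38 appears in the notes with no stated role. The deposited log2 fold changes and p-values of the authors' own comparisons were not used. The table of urothelium with and without 1 month of BBN (8 columns) was not used, because its columns could not be tied to conditions.

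Each comparison was fitted on all genes in R 4.3.3 with limma 3.58.1 (lmFit, then trended eBayes) after log2(normalized count + 1), with Benjamini-Hochberg adjustment at 0.05. A gene entered if the number of libraries reaching 10 normalized counts was no less than the size of the smaller group. The fit of luminal and basal tumors also held the 2 luminal domain libraries of its table. Comparisons stayed within a table. The members and lists were chosen with earlier results of these data known. Every member was accounted for by role, with full values for those called or, in a comparison where none was called, those without overlap, the rest by ranges and counts, and the other pathway genes were named where called, except that some are not reported here. Cpt1a, Decr1, Ucp2, Hadha and the other uncalled genes given in full were named after their values were seen. Promoters, 31-base stretches and figures were handled in Python 3.11.15 with pandas 2.3.3 and matplotlib 3.10.9. The fits were tested on simulated data. Alternatives covered pseudocounts, filters, eBayes settings, weights, scaling, the smaller 4-day table, a Y-linked term, pooling of luminal libraries and each library left out. Domain libraries with consecutive names deviated together from their group means (correlation across genes 0.33 to 0.36 within the 3 pairs, -0.20 to -0.11 otherwise). With 3 libraries centred on their group mean, positive values within pairs force negative ones on average otherwise, so the latter are no separate sign of pairing. A fit with these pairs as a block was added after the data were seen. The labels do not state this pairing.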

Additional observations from a re-analysis of the deposited data

How the results depend on the processing

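The median log2 fold change of the members kept its sign in every alternative fit and moved by less than 1 SD between libraries, lying between 0.25 and 0.36 at 4 days, 0.68 and 1.02 in luminal tumors, 0.75 and 1.11 in the domain comparison with basal tumors, and 0.22 and 0.35 between the domains. No called gene changed sign. Among uncalled members, 9 changed sign in some alternative fit at 4 days and 7 in luminal tumors. In the luminal domain against basal tumors 6 did so, and between the domains 9. Calls were less stable, and the cause was not tested. At 4 days 6 members were called, against 1 without a trend in eBayes, 0 in the table of 3 against 3 libraries and 0 with the Y-linked term, and 0 to 5 without each library in turn. In luminal tumors 2 were called, against 1 with a pseudocount of 0.5, 1 with no filter, 1 without a trend, 1 after quantile normalization, 1 after upper-quartile scaling, 1 in the fit on luminal and basal tumors alone, and 6 when the luminal domain libraries were pooled with the tumors (adding Acaa1a, Decr2, Etfb and Ech1), and 0 to 3 without each library. Pooling raised the calls over all genes too, from 338 to 513. Without a trend, calls over all genes fell from 467 to 269 at 4 days and from 338 to 142 in luminal tumors. In the luminal domain against basal tumors they fell from 377 to 107. In the luminal domain against basal tumors 4 were called, against 1 with no filter, 1 without a trend and 1 after upper-quartile scaling, and 0 to 3 without each library. Between the domains 0 were called in every fit. Upper-quartile scaling placed the median of all genes at -0.19 in luminal tumors and -0.14 in the luminal domain, and the members' medians of 0.79 and 0.82 stand relative to it.

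For the 4-day groups and the comparisons with basal tumors no paired analysis was possible because the columns carry no replicate numbers. With a replicate block that paired the domain libraries by consecutive names, added after the data were seen, 0 members were called as without it, their median stayed at 0.30, and 1 gene of all was called. With 3 libraries a group in the tumors, a gene can differ between tissues and still miss the threshold. The reads behind each library are not in the tables, so values near 0 (Acox2, Ucp3, Cpt1b) cannot be given a counting limit.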
